A study of Mus musculus with 6 samples.

Results

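The transcripts of the TGF-beta, BMP and activin signalling system were followed in the fibroblast mask of mouse cholangiocarcinoma. They were chosen by name as all targets of the deposited table that are TGF-beta ligands (Tgfb1 to Tgfb3), TGF-beta receptors (names starting Tgfbr), activin receptors (Acvr), bone morphogenetic proteins and their receptors (Bmp with a number, Bmpr), Smads, activin beta subunits (Inhb) or growth differentiation factors (Gdf with a number), plus Eng, Id1, Id2, Id3, Ski and Skil. The rule found 45 of 13264 targets. It also took in 3 genes that carry a family name without being a ligand, receptor or Smad, namely Bmp1, Bmp2k and Tgfbrap1. Cryosections of tumours grown from the SB murine cholangiocarcinoma line were profiled with the GeoMx mouse whole transcriptome assay, in which probe tags are released from a chosen area and sequenced. Tags were collected from areas positive for Desmin and negative for CD45, which should hold cancer-associated fibroblasts, activated stellate cells among them. Of 6 regions, 3 (areas 11, 12 and 13) came from Cd274F/FCol1A1Cre mice, with both alleles of the PD-L1 gene Cd274 floxed, and 3 (areas 14, 15 and 16) from Cd274+/+Col1A1Cre mice, with both alleles intact. They are called floxed regions 1 to 3 and control regions 1 to 3. Both genotypes carry the Col1A1Cre transgene, so the Cre itself does not differ between them, and cells in the mask that never used the Col1A1 promoter would keep an intact Cd274. All 6 regions lay on 1 slide, the labels do not say which animal a region is from, and they give neither age nor strain. If regions of a group share an animal, the p-values below are too small.

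In this system a dimeric ligand joins type I and type II receptor kinases, and the type I kinase phosphorylates receptor-regulated Smads, which enter the nucleus with Smad4. TGF-beta and activin ligands act mainly through Smad2 and Smad3, and BMPs and many GDFs through Smad1, Smad5 and Smad9. Smad6, Smad7, Ski and Skil restrain the signal, and the Id genes are widely used as readouts of BMP signalling. In the liver, TGF-beta is a main driver of stellate cell activation and of collagen production by fibroblasts.

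The summed signal, in the deposited units, was 223253 to 393615 in the floxed regions and 720786 to 1024180 in the control regions, so levels are given in Q3-scaled units, in which the upper quartile (Q3, the 75th percentile of the targets) is the same in every region. Cd274 itself read 11.1, 17.4 and 29.2 in the floxed regions, against 10.6, 14.2 and 13.4 in the control regions, with an adjusted p of 0.610 for a log2 change of 0.47. It was not lower in the regions labelled floxed, and where its probe lies relative to the floxed exons is not given, so the genotype labels have no check here. The fibroblast transcript Col1a1 read 1510, 1411 and 2265 in the floxed regions, against 2723, 3738 and 2484 in the control regions. Des, the transcript of the mask protein, read 22.2 to 46.0 and 24.9 to 40.4 in the floxed and control regions. Ptprc, the transcript of CD45, read 29.6, 58.8 and 55.0 in the floxed regions, against 21.2, 26.8 and 30.3 in the control regions. These ranges overlapped, with a log2 change of 0.80 (limma, adjusted p = 0.274). Ptprc lay at 4.18 to 10.2 times the negative probe, the background measure used below, although the mask left out CD45-positive areas. The summed level of 15 fibroblast and stellate cell markers was 3767 to 5138 in the floxed regions and 6070 to 8369 in the control regions, but Col1a1, Col1a2 and Col3a1 carried it. Without these 3 collagens the sum of the other 12 was 599 to 1238 in the floxed regions and 630 to 866.3 in the control regions, which overlapped. Of the 15 markers 7 had positive estimates, the median log2 change was -0.04, and 1, Pdpn (podoplanin), was called higher (1.36, adjusted p = 0.0239). The summed level of 10 tumour epithelial markers was 1203 to 1904 and 1911 to 2751, that of 6 T and NK cell markers 64.8 to 148 and 46.1 to 54.0, and that of 5 B and plasma cell markers 211 to 1805 and 46.8 to 63.2, in the floxed and control regions, and for these 3 lists the groups did not overlap. The sums of 15 endothelial markers (277 to 559 and 347 to 727), 10 hepatocyte markers (3112 to 10341 and 4651 to 5978) and 10 macrophage markers (520.4 to 862.5 and 340.0 to 707) overlapped. No listed marker in the table was at 0. The part of these differences in any result below was not tested. In these areas, fewer cells of a type and less RNA per cell cannot be told apart.

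None of the 45 components passed the test (limma, floxed minus control, p adjusted by Benjamini-Hochberg over all 13264 targets, threshold 0.05), where 0.588% of all targets were called higher and 0.113% lower. At an unadjusted p under 0.05, 5 components were lower in the floxed regions (Smad1, Inhbb, Id1, Id2 and Bmp1, 11.1%, against 5.98% of all targets) and 2 were higher (Acvrl1 and Gdf10, 4.44%, against 6.73%). The floxed range lay wholly below the control range for 5 components (11.1%, against 9.08% of all targets), which were Smad1, Inhbb, Id1, Tgfbr1 and Bmp1. It lay wholly above for Acvrl1 and Bmp2k (4.44%, against 10.1%). The median change of the components was -0.12 on the log2(value + 1) scale, against 0.02 for all targets, and 27 of 45 were below 0 (60.0%, against 47.6% of all targets). The 95% intervals of the changes had half-widths of 0.48 to 1.45, with a median of 0.69. For 15 components the interval lay within -1 to 1, so a change of 2-fold or more lay outside it. Without floxed region 1, however, 6 of the 45 components passed over all targets, Smad1, Inhbb, Id1, Id2 and Tgfb2 lower and Gdf15 higher. Of all 13264 targets, 537 were then higher and 487 lower. No component passed when any other region was left out.

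These changes are relative to a shift of the whole table. On the values as deposited the median of all targets was -1.22 and that of the components -1.38, and 32 of 45 components were called lower (71.1%, against 74.7% of all targets) and 0 higher (against 0.158%). Of the 18 components with a positive estimate after Q3 scaling, 17 had a negative one as deposited, and Acvrl1 was then at 0.07. Scaling to the negative probe moved the median of all targets to -0.17 and that of the components to -0.31, with 0 of 45 called.

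**Figure D1:**
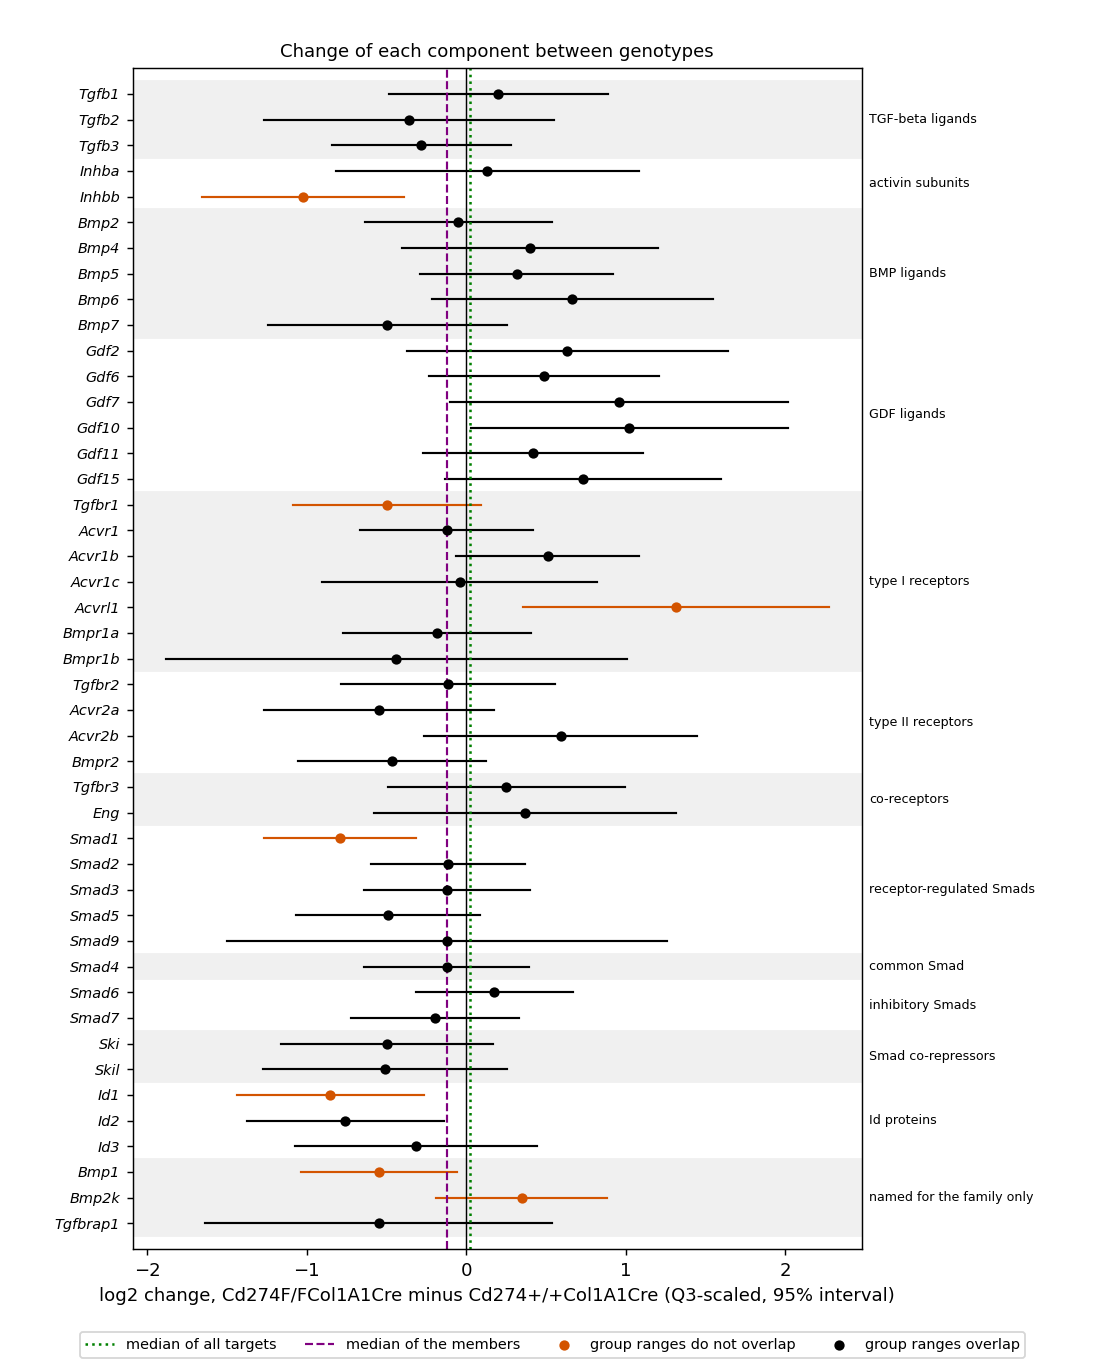
Change of each of the 45 components between genotypes, in log2 units after Q3 scaling (points, limma estimate; lines, 95% interval; orange, the 3 floxed and 3 control regions do not overlap). The intervals that exclude 0 are those of Smad1, Inhbb, Id1, Id2 and Bmp1 to the left and of Acvrl1 and Gdf10 to the right. None of the 45 has an adjusted p under 0.05 (limma).

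Most components were above background, as were most targets. In a single region 37 to 40 of the 45 components lay over 2 times the negative probe, and 81.0% to 88.4% of all targets did. The negative probe, designed to match no mouse RNA, gave 4.77, 6.97 and 5.39 Q3-scaled units in the floxed regions and 5.06, 4.86 and 4.76 in the control regions. In all 6 regions 29 components lay over 2 times the negative probe of their region, 14 did so in some, and Bmpr1b and Smad9 averaged under 2 times it in both groups. As a multiple of the negative probe, the median component was 5.43, 3.12 and 4.37 in floxed regions 1, 2 and 3, against 4.78, 4.45 and 5.51 in control regions 1, 2 and 3. The median of all targets was 4.27, 3.43 and 3.95 in the floxed regions, against 3.88, 4.22 and 4.32 in the control regions. The median component lay below it in floxed region 2 and above it in the other regions. Id2, Eng, Smad7, Id3 and Id1 had the highest multiples, although a difference between targets also carries the yield of their probes. Among the floxed regions, region 2 was the lowest for 24 of 45 components and region 1 the highest for 25. For how many of all targets this held was not computed, so it is no trait of the components. Within each region the values came in equal steps, which 99.98% of all values met within 0.01 of a step. If a step is 1 tag, the median component rested on 14, 10 and 21 tags in the floxed regions and on 32, 38 and 51 tags in the control regions.

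**Figure D2:**
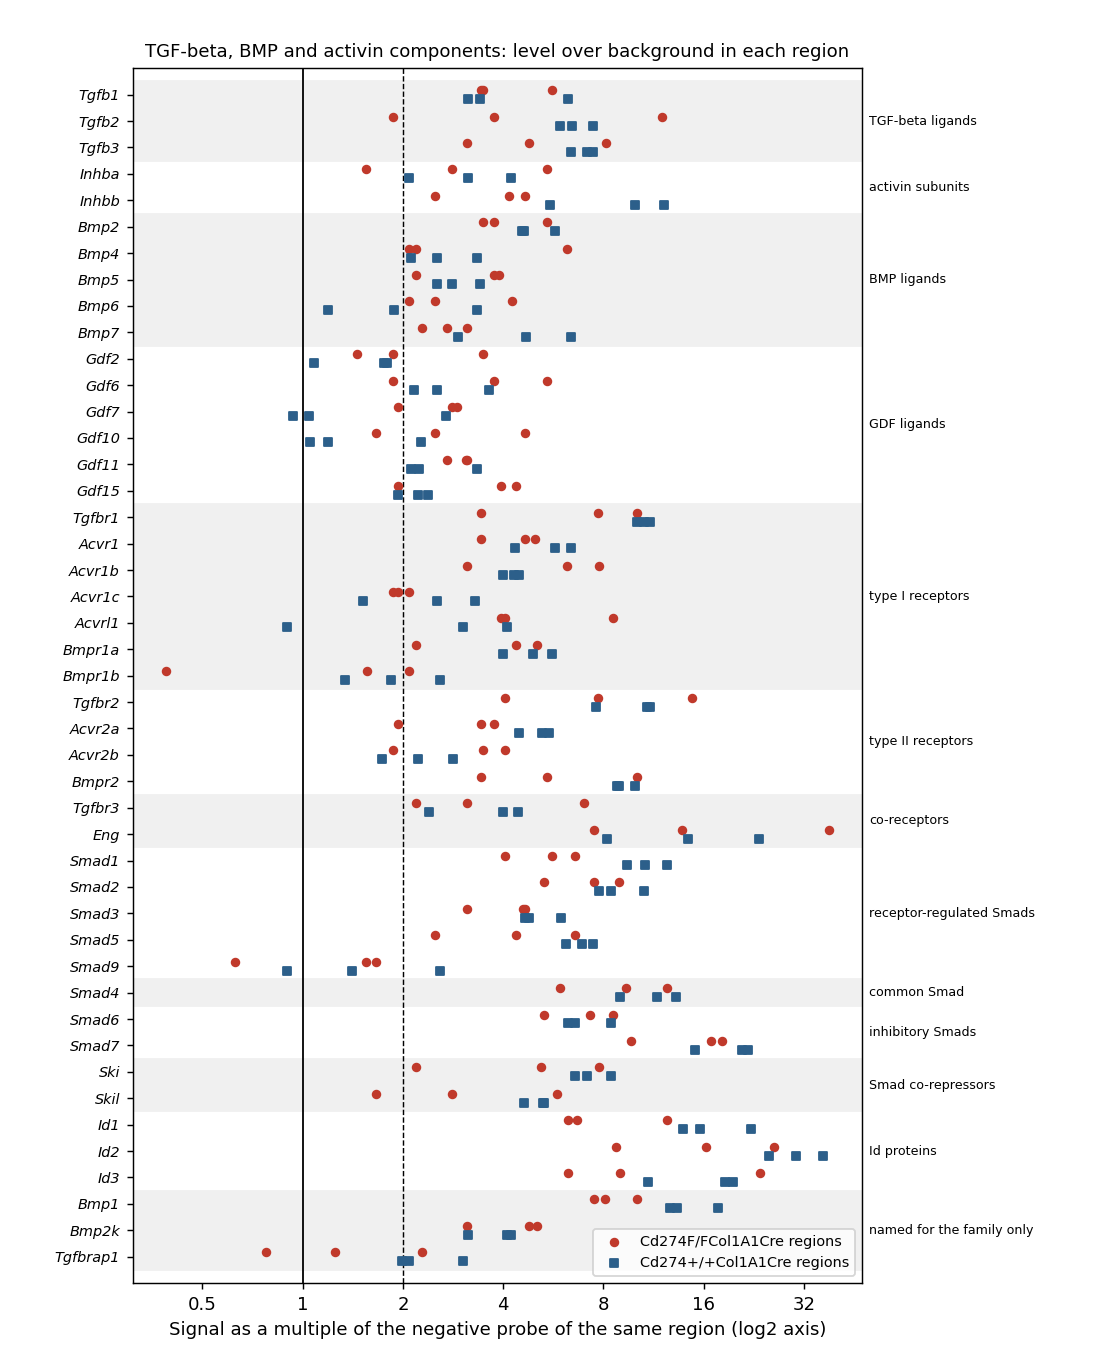
Signal of each component as a multiple of the negative probe in the same region, on a log2 axis (red circles, 3 floxed regions; blue squares, 3 control regions; solid line, the negative probe; dashed line, 2 times it). The Id genes, Eng and Smad7 lie farthest to the right, while Bmpr1b, Smad9 and several Gdf genes lie near the lines.

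The TGF-beta ligands showed no difference beyond their spread. Tgfb1, the main fibrogenic isoform, read 16.7, 23.95 and 30.3 in the floxed regions, against 15.9, 16.5 and 29.8 in the control regions. These ranges lay on top of each other, and the log2 change was 0.20 ± 0.32 (SE), with a 95% interval of -0.49 to 0.89. Tgfb2 read 57.4, 13.1 and 20.2 in the floxed regions, against 37.8, 31.3 and 28.3 in the control regions. Floxed region 1 was the highest of all 6 for Tgfb2 and floxed regions 2 and 3 were the lowest, so its change turned on 1 library: -0.36 ± 0.42 with all regions, and -0.95 ± 0.27 with an adjusted p of 0.0445 without floxed region 1. Tgfb3 read 38.9, 21.8 and 25.8 in the floxed regions, against 32.5, 34.7 and 35.5 in the control regions, a log2 change of -0.28 ± 0.26. The control regions were close together for Tgfb3 and the floxed regions lay on both sides of them.

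Of the activin subunits, Inhbb encodes beta B, which forms activin B. It read 22.2, 17.4 and 22.4 in the floxed regions, against 27.95, 59.2 and 47.3 in the control regions. The floxed regions were all lower and close together, and the means were 20.7 ± 2.83 and 44.8 ± 15.8 (SD, n = 3 each). The log2 change of -1.02 ± 0.29 was the most negative of the 45 estimates, with a 95% interval of -1.65 to -0.39 and an adjusted p of 0.162. It ran from -1.32 without control region 1 to -0.79 without control region 2. Inhba, which forms activin A, read 7.40, 19.6 and 29.2 in the floxed regions, against 10.6, 20.5 and 14.9 in the control regions, with overlapping ranges.

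BMP ligands averaged 2.71 (Bmp7) to 4.22 (Bmp2) times the negative probe in the floxed regions. In the control regions they averaged 2.14 (Bmp6) to 4.98 (Bmp2) times. Bmp2, Bmp4, Bmp5, Bmp6 and Bmp7 averaged 15.7 to 24.0 units in the floxed regions and 10.4 to 24.3 in the control regions, their ranges overlapped, and their adjusted p ran from 0.518 to 0.964. The largest of these changes was that of Bmp6, which sinusoidal endothelium makes in the liver and which drives hepcidin in hepatocytes. It read 20.4, 17.4 and 11.2 in the floxed regions, against 6.04, 9.11 and 15.9 in the control regions, a log2 change of 0.66 ± 0.40. Bmp7 read 12.96, 21.8 and 12.3 in the floxed regions, against 32.5, 22.8 and 13.9 in the control regions.

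All 6 Gdf genes had positive estimates after Q3 scaling, from 0.42 for Gdf11 to 1.02 for Gdf10 with adjusted p of 0.378 to 0.609, and negative ones as deposited. They averaged 2.27 to 3.68 times the negative probe in the floxed regions and 1.51 to 2.78 times in the control regions, and the Q3-scaled negative probe was itself highest in floxed region 2. Gdf10 read 22.2, 17.4 and 8.97 in the floxed regions, against 6.04, 5.13 and 10.8 in the control regions. Gdf7 read 9.25, 19.6 and 15.7 in the floxed regions, against 5.29, 4.56 and 12.9 in the control regions. As both lay near background in the control regions, the sizes of these differences are uncertain. Gdf15, a stress-induced and divergent member that signals through a receptor of its own, read 9.25, 30.5 and 21.3 in the floxed regions, against 9.82, 10.8 and 11.3 in the control regions. Floxed region 1 lay below all control regions for Gdf15 and the other 2 lay above them, and without floxed region 1 its log2 change was 1.19 ± 0.31 with an adjusted p of 0.0291.

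Among the type I receptors, Acvrl1 stood at the high end and Tgfbr1 at the low end. Acvrl1 encodes ALK1, the endothelial receptor for BMP9 (the product of Gdf2) and BMP10. It read 40.7, 28.3 and 21.3 in the floxed regions, against 4.53, 19.9 and 14.4 in the control regions. Every floxed region was above every control region, although floxed region 3 and control region 2 lay close together. The log2 change was 1.31 ± 0.44, with a 95% interval of 0.35 to 2.27 and an adjusted p of 0.251, and it ran from 0.74 without control region 1 to 1.70 without control region 2. In control region 1 Acvrl1 lay at 0.895 times the negative probe, so the size of the change is uncertain. Tgfbr1, the TGF-beta type I kinase, read 48.1, 23.95 and 41.5 in the floxed regions, against 55.9, 49.0 and 50.4 in the control regions. The floxed regions were all lower, floxed region 1 by little, and the log2 change was -0.50 ± 0.27 with an adjusted p of 0.468. Acvr1b, an activin type I receptor, read 37.0, 21.8 and 33.7 in the floxed regions, against 22.7, 19.4 and 20.6 in the control regions, a log2 change of 0.51 ± 0.26 (adjusted p = 0.442). The ranges of Acvr1, Acvr1c, Bmpr1a and Bmpr1b overlapped, with log2 changes of -0.12, -0.04, -0.18 and -0.44.

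The type II receptors and co-receptors overlapped between genotypes. Tgfbr2, the TGF-beta type II kinase, read 70.3, 28.3 and 41.5 in the floxed regions, against 38.5, 53.5 and 51.4 in the control regions, with floxed regions at both ends. Bmpr2, the BMP type II kinase, read 48.1, 23.95 and 29.2 in the floxed regions, against 44.6, 43.3 and 47.3 in the control regions, a log2 change of -0.47 ± 0.27. The activin type II receptors Acvr2a and Acvr2b had log2 changes of -0.55 ± 0.33 and 0.59 ± 0.39. Tgfbr3, betaglycan, presents TGF-beta2 to the kinases and read 33.3, 15.2 and 16.8 in the floxed regions, against 12.1, 19.4 and 21.1 in the control regions. Eng, endoglin, a co-receptor of ALK1 on endothelium that stellate cells also carry, read 181, 52.3 and 74.0 in the floxed regions, against 41.6, 114 and 68.4 in the control regions. Floxed region 1 was the highest of all 6 and control region 1 the lowest, and the other regions were interleaved. Its log2 change was 0.37 ± 0.43 with all regions and -0.14 ± 0.33 without floxed region 1.

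Because Acvrl1 and Eng are known for endothelium, their values were set beside Cdh5, the endothelial cadherin, a pairing chosen after the values were seen. Cdh5 read 61.1, 34.8 and 33.7 in the floxed regions, against 32.5, 129 and 115.7 in the control regions. The ratio of Acvrl1 to Cdh5 within a region, which no scaling changes, was 0.667, 0.812 and 0.633 in the floxed regions, against 0.140, 0.155 and 0.124 in the control regions. The ratio of Eng to Cdh5 was 2.97, 1.50 and 2.20 in the floxed regions, against 1.28, 0.885 and 0.591 in the control regions. Both ratios were higher in every floxed region than in any control region, but that of Eng depended on the marker. Over each of the 15 endothelial markers in turn, the ratio of Acvrl1 lay wholly above the control range for 12 and overlapped for 3 (Tek, Lyve1 and Oit3), and the ratio of Eng lay wholly above for 6 and overlapped for 9. With Pecam1 as the marker, the ratio of Eng was 4.67, 1.60 and 3.67 in the floxed regions, against 2.62, 2.41 and 2.18 in the control regions, and that of Acvrl1 was 1.05, 0.867 and 1.06 in the floxed regions, against 0.286, 0.422 and 0.459 in the control regions. The 15 ratios of a gene share its values. Some rest on background, as Clec14a was at 0.416 times the negative probe in floxed region 3 and Vwf at 0.937 times in floxed region 2. Acvrl1 itself was at 0.895 times in control region 1. The ranges of Acvrl1 already did not overlap and 12 of the 15 markers had negative estimates, so ratios wholly above were likely beforehand. How often other genes give such ratios was not computed. These are descriptions with no test, and the share of endothelial cells in each area was not measured.

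Smad1, a receptor-regulated Smad of the BMP branch, had the smallest p of the 45 components. It read 31.5, 28.3 and 30.3 in the floxed regions, against 47.6, 60.4 and 50.9 in the control regions. The floxed regions lay within a few units of each other and all below the control regions, with means of 30.0 ± 1.60 and 53.0 ± 6.63 (SD, n = 3 each). The log2 change was -0.79 ± 0.22, with a 95% interval of -1.27 to -0.32 and an adjusted p of 0.154, and it ran from -0.86 to -0.70 with each region left out in turn. Smad5, of the same branch, read 31.5, 17.4 and 23.6 in the floxed regions, against 37.8, 33.6 and 29.3 in the control regions. Its ranges overlapped, and the log2 change was -0.49 ± 0.27. Smad9, the remaining Smad of this branch, lay near background in both groups.

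The Smads of the TGF-beta and activin branch had smaller estimates, and their ranges overlapped between genotypes. Smad2 read 42.6, 37.0 and 40.4 in the floxed regions, against 39.3, 41.0 and 50.4 in the control regions, a log2 change of -0.11 ± 0.22 with an interval of -0.59 to 0.37. Smad3 read 22.2, 21.8 and 24.7 in the floxed regions, against 24.2, 29.0 and 22.1 in the control regions, a log2 change of -0.12 ± 0.24 with an interval of -0.64 to 0.40. Smad4, which both branches share, read 59.2, 41.4 and 50.5 in the floxed regions, against 45.3, 64.4 and 55.0 in the control regions. For these 3 genes the regions of the groups were interleaved, and a 2-fold change lay outside each interval.

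The ratio of Smad1 to Smad2 within a region, a pairing chosen after the values were seen, was 0.739, 0.765 and 0.750 in the floxed regions, against 1.21, 1.47 and 1.01 in the control regions. The means were 0.751 ± 0.013 and 1.23 ± 0.23 (SD, n = 3 each). The median component stood at only 14, 10 and 21 steps in the floxed regions, so the SD of 0.013 is no measure of precision. The ratio of Smad1 to Smad3 was 1.42, 1.30 and 1.23 in the floxed regions, against 1.97, 2.08 and 2.30 in the control regions. Both ratios, and that of Smad1 to Smad4, were lower in every floxed region than in any control region, whereas the ratio of Smad5 to Smad2 overlapped. They are given with no test. The ranges of Smad1 alone already did not overlap, so these ratios are no separate support. Their absolute size also depends on the probes, so that the difference between regions alone can be read.

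**Figure D3:**
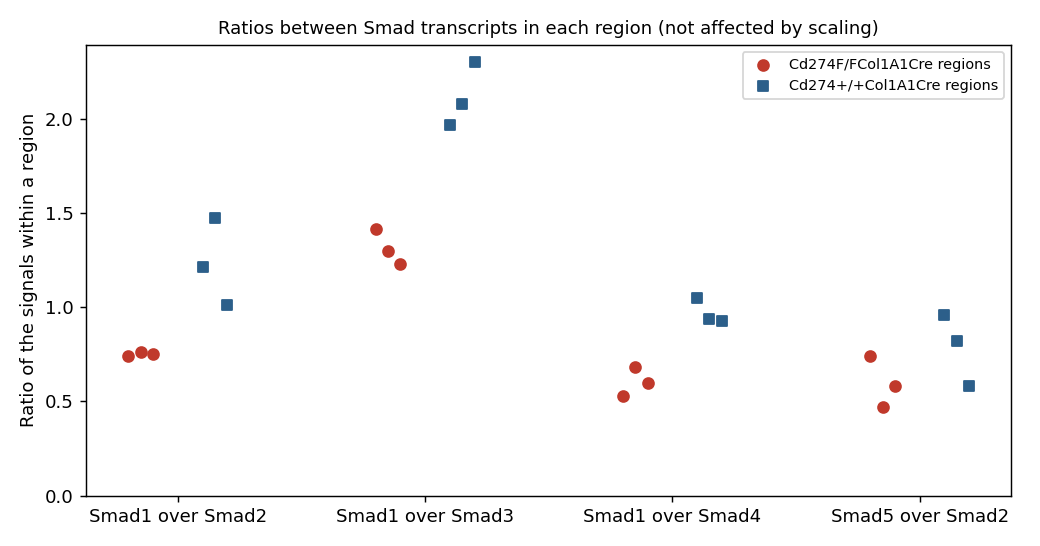
Ratios between Smad transcripts within each region, which no scaling of the regions changes (red circles, 3 floxed regions; blue squares, 3 control regions). The 3 ratios with Smad1 on top do not overlap between genotypes, and that of Smad5 to Smad2 does.

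The inhibitors of the pathway had log2 changes of -0.51 to 0.18, and none passed. Smad7, induced by TGF-beta and BMP signals and a blocker of type I receptors, read 87.0, 67.5 and 90.9 in the floxed regions, against 110.3, 101 and 72.0 in the control regions, a log2 change of -0.20 ± 0.24. Smad6, which blocks mainly the BMP branch, read 40.7, 37.0 and 39.3 in the floxed regions, against 33.2, 41.0 and 29.8 in the control regions, a log2 change of 0.18 ± 0.23 with an interval of -0.32 to 0.67. The ranges of both genes overlapped. Ski, a co-repressor of Smad target genes, read 37.0, 15.2 and 28.0 in the floxed regions, against 33.2, 34.7 and 40.1 in the control regions. Skil, its relative SnoN, read 27.8, 19.6 and 8.97 in the floxed regions, against 23.4, 25.6 and 25.2 in the control regions. The control regions were close together for Skil, and the floxed regions spread on both sides of them. The log2 changes of Ski and Skil were -0.50 ± 0.30 and -0.51 ± 0.35.

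The Id genes encode inhibitors of basic helix-loop-helix transcription factors and are direct targets of Smad1 and Smad5. Id1 read 59.2, 43.5 and 35.9 in the floxed regions, against 112.6, 75.7 and 65.8 in the control regions. Every floxed region was below every control region, and the means were 46.2 ± 11.9 and 84.7 ± 24.6 (SD, n = 3 each). The log2 change was -0.85 ± 0.27, with a 95% interval of -1.44 to -0.27 and an adjusted p of 0.217. Id2 read 124, 61.0 and 87.5 in the floxed regions, against 184, 147 and 119.8 in the control regions. Floxed region 1 lay just above control region 3, so the ranges of Id2 met, and the log2 change was -0.76 ± 0.28 with an adjusted p of 0.291. Id3 read 113, 43.5 and 48.2 in the floxed regions, against 55.1, 95.1 and 88.4 in the control regions. Floxed region 1 was the highest of all 6 for Id3, and the log2 change was -0.32 ± 0.35 with all regions and -0.74 without floxed region 1. Id1 and Id2 had adjusted p of 0.0207 and 0.0223 without floxed region 1, with log2 changes of -1.04 ± 0.25 and -1.01 ± 0.25. Floxed region 1 also had the highest of the floxed sums for endothelial markers (559, against 277 and 294 in floxed regions 2 and 3). The same held for hepatocytes (10341, against 3112 and 8695) and B and plasma cells (1805, against 416 and 211). It also held for macrophages (862.5, against 520.4 and 747.1) and platelets (33.3, against 19.6 and 19.1). So it did for the 12 fibroblast markers without collagens (1238, against 688 and 599). Floxed region 1 was the lowest for T and NK cells (64.8, against 148 and 148) and tumour epithelium (1203, against 1209 and 1904). It was also the lowest for smooth muscle (352, against 364 and 503). The part of these sums in the Id values was not tested.

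**Figure D4:**
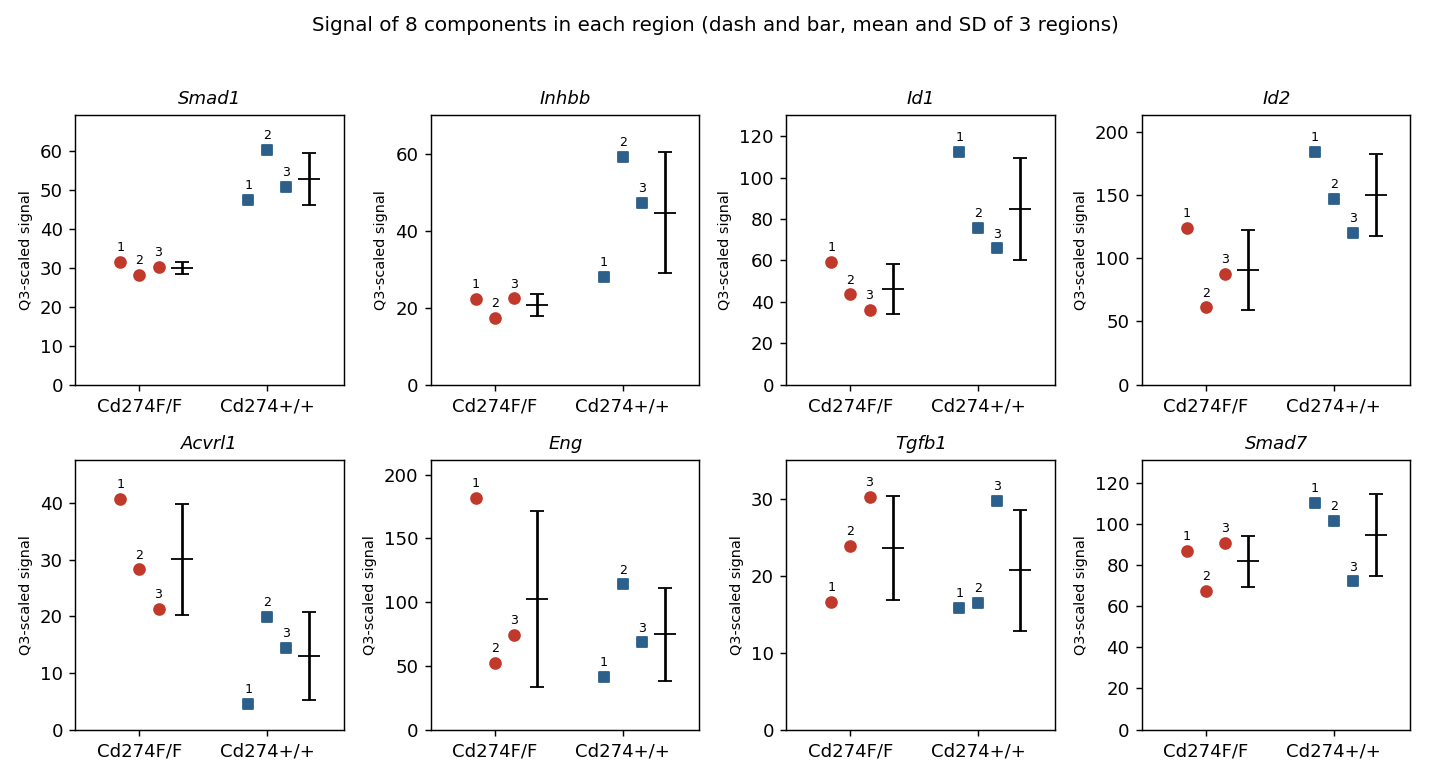
Q3-scaled signal of 8 components in each region (red circles, floxed; blue squares, control; numbers, the region; dash and bar, mean and SD of 3 regions). Smad1, Inhbb and Id1 lie lower and Acvrl1 higher in every floxed region, Eng and Tgfb1 overlap, and Id2 meets at floxed region 1 and control region 3.

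The proximal promoters of Id2, Id3 and Smad6, textbook targets of the BMP Smads, and of Smad1 and Inhbb, the components with the smallest p, show what lies at the starts of these genes. They run from 250 bases before to 50 after the gene start, 5′ to 3′ on the gene's strand, from RefSeq on build GRCm38.p6. Capitals mark the letters GTCT on either strand, the core that Smad proteins bind, and GGCGCC, a GC-rich element of BMP Smads, which reads the same on both strands.
Id2, chr12:25096043-25096342, minus strand: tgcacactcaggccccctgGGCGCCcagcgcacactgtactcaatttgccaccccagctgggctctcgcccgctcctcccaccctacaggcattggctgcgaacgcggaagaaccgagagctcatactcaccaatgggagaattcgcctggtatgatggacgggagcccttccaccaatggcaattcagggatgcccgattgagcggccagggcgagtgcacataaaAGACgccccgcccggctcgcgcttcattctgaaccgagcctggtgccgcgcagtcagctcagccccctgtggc
Id3, chr4:136143572-136143871, plus strand: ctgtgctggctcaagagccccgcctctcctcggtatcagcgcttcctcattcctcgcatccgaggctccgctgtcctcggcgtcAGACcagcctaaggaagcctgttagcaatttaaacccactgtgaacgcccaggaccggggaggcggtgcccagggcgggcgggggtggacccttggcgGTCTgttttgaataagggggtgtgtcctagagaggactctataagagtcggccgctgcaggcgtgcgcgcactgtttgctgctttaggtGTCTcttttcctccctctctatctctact
Smad6, chr9:64022010-64022309, minus strand: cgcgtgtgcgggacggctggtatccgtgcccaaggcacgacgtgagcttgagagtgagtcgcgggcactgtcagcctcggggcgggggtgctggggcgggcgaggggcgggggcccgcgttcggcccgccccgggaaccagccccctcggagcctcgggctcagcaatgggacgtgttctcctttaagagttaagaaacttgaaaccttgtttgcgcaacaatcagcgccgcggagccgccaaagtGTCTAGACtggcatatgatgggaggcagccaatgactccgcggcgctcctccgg
Smad1, chr8:79399379-79399678, minus strand: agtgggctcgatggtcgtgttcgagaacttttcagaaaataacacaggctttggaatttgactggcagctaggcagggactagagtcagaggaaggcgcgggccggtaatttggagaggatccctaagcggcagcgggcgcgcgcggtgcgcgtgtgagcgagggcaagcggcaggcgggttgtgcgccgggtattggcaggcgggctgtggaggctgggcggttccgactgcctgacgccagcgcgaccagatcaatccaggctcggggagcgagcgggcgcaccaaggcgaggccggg
Inhbb, chr1:119422199-119422498, minus strand: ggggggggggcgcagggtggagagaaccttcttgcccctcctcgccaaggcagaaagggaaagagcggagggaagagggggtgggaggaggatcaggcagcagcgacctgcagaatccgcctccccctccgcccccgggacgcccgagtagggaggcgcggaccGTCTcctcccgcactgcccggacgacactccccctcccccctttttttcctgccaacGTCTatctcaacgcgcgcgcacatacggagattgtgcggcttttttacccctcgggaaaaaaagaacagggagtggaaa

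The GTCT letters occurred 1, 3, 2, 0 and 2 times in the promoters of Id2, Id3, Smad6, Smad1 and Inhbb, counting both strands. At 4 letters they are common, and 88.0% of 32851 mouse promoter windows of the same length held them. In Smad6, GTCT and its reverse complement stand side by side and form a palindrome. GGCGCC occurred once, in Id2, against 11.9% of all windows. Of the 41 windows of components (a gene can have several), 12 held GGCGCC (29.3%) and 35 held GTCT (85.4%). The joint element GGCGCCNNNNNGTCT, with 5 free bases between its parts, was in none of the 5 windows and in 0.0731% of all windows. In all, 33 of 45 components had a promoter entry, and Id1 was not among them. A match is a description of letters, not of binding.

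Of the genes that carry a family name only, Bmp1, the protease that trims procollagens, read 48.1, 52.3 and 43.7 in the floxed regions, against 64.2, 86.0 and 63.2 in the control regions. All floxed regions were lower, with a log2 change of -0.55 ± 0.22 and an adjusted p of 0.339. Bmp2k, a kinase of clathrin-coated vesicles, read 24.1, 21.8 and 25.8 in the floxed regions, against 15.9, 20.5 and 19.5 in the control regions, all higher but with an interval of -0.19 to 0.88. Tgfbrap1, a vesicle-tethering protein, lay near background.

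Around these components, 93 further pathway genes were in the table, from 6 lists of storage, antagonists, other ligands, intracellular regulators and targets. The lists also hold some of the 45 components, and a few genes stand on more than 1 list. Of them 1 rose and 0 fell over all targets, and 7 were higher and 14 lower at an unadjusted p under 0.05 (limma, 7.53% and 15.1%, against 6.73% and 5.98% of all targets). Their median log2 change was -0.17. The gene that rose was Ltbp2, a latent TGF-beta binding protein family member of elastic fibres that itself binds no latent TGF-beta. It read 92.5, 106.7 and 83.0 in the floxed regions, against 21.9, 40.4 and 25.2 in the control regions. The floxed regions lay far above the control regions, and the log2 change was 1.70 ± 0.26 with an adjusted p of 0.0127. It lost its call without floxed region 3, control region 1 or control region 3, where the log2 change was 1.78, 1.52 and 1.61 with adjusted p of 0.0770, 0.101 and 0.0731 (limma). It was also not called after scaling to the negative probe (1.50, adjusted p = 0.0886), without the variance trend (adjusted p = 0.0980) or as deposited (0.41, adjusted p = 0.390).

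Among the 17 genes of latent storage and activation, 14 had negative estimates (82.4%, against 47.6% of all targets) and the median was -0.30. At an unadjusted p under 0.05 (limma), 2 were higher and 5 lower (11.8% and 29.4%, against 6.73% and 5.98% of all targets). Mmp14, a membrane protease that can release latent TGF-beta, read 137, 119.8 and 157 in the floxed regions, against 215, 285 and 449 in the control regions, a log2 change of -1.13 ± 0.28 (adjusted p = 0.117). Of 28 tested TGF-beta target genes 0 passed, 1 was higher and 6 were lower at an unadjusted p under 0.05 (limma), and the median was -0.19. Fn1, fibronectin, read 363, 150.2 and 379 in the floxed regions, against 785, 848 and 778 in the control regions. The floxed regions were all lower, with a log2 change of -1.55 ± 0.35 and an adjusted p of 0.0763. Tgfbi, a matrix protein named for its induction by TGF-beta, went the other way. It read 44.4, 39.2 and 38.1 in the floxed regions, against 15.1, 18.8 and 28.3 in the control regions, a log2 change of 0.98 ± 0.27 (adjusted p = 0.148). Of this list, which includes the components Smad7 and Skil, 64.3% had negative estimates, against 47.6% of all targets. At an unadjusted p under 0.05, 21.4% were lower and 3.57% higher, against 5.98% and 6.73% of all targets.

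Of 12 tested BMP target genes, 6 of which are Id or Smad components described above, 8 had negative estimates and 0 passed. The negative share was 66.7%, against 47.6% of all targets. At an unadjusted p under 0.05 (limma), Hamp and Runx2 were higher and Id1 and Id2 lower. These were 16.7% each, against 6.73% higher and 5.98% lower of all targets. Hamp, hepcidin, the hepatocyte target of BMP6, read 270.2, 102 and 241 in the floxed regions, against 20.4, 54.7 and 175 in the control regions, a log2 change of 1.67 ± 0.60 (adjusted p = 0.271). The ranges overlapped, and the hepatocyte marker sum was 10341, 3112 and 8695 in the floxed regions, against 5832, 4651 and 5978 in the control regions. Its part in the Hamp values was not tested. Of 21 tested antagonists and modulators 0 passed (1 higher and 2 lower at an unadjusted p under 0.05, limma). These were 4.76% and 9.52%, against 6.73% and 5.98% of all targets. Hjv, the BMP co-receptor hemojuvelin, had a log2 change of 0.92 ± 0.35, and Nbl1, a secreted BMP antagonist, of -0.73 ± 0.29. Of 26 tested intracellular regulators, Ski and Skil among them, 20 had negative estimates (76.9%, against 47.6% of all targets) and 0 passed. At an unadjusted p under 0.05 (limma), 0 were higher and 2 lower (0% and 7.69%, against 6.73% and 5.98% of all targets). Dab2, an endocytic adaptor, and Fkbp1a, which holds type I receptors inactive, had log2 changes of -0.82 ± 0.35 and -0.51 ± 0.23. The other superfamily ligands and receptors in the table were Amh, Amhr2 and Cfc1, all near background in the control regions, with 0 calls. At an unadjusted p under 0.05 (limma), 1 was higher and 0 lower (33.3% and 0%, against 6.73% and 5.98% of all targets). Amhr2 and Cfc1 had log2 changes of 1.19 ± 0.47 and 0.94 ± 0.45.

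**Figure D5:**
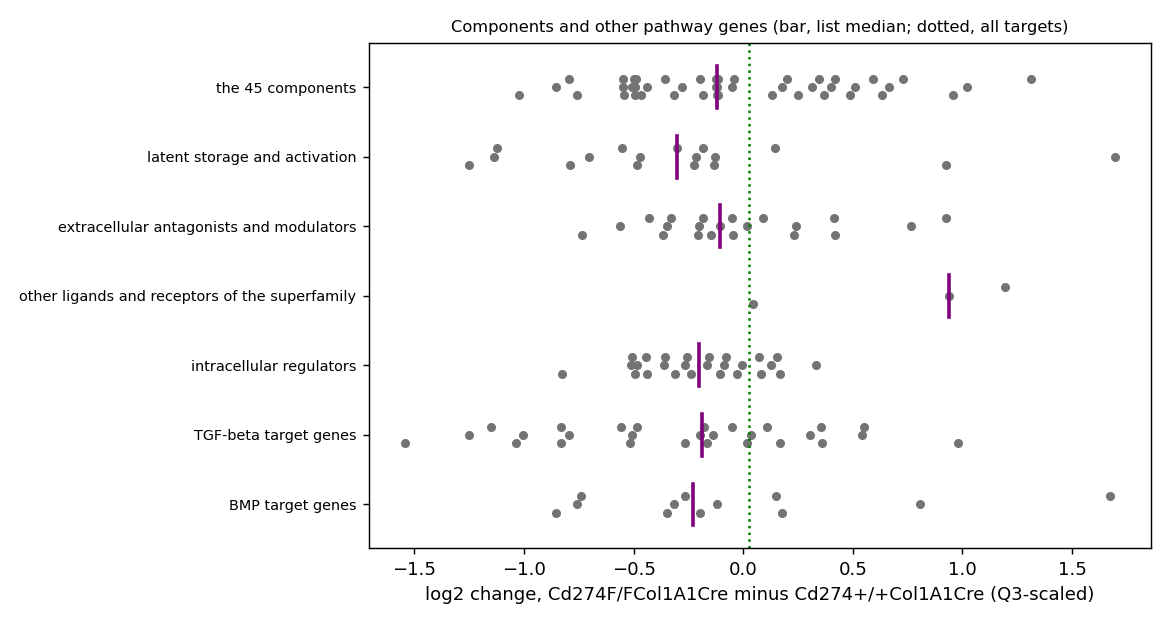
Log2 change of each component and of each tested gene of 6 pathway lists (grey points, genes; purple bar, list median; green dotted line, median of all targets at 0.02). The medians of the components and of 5 of the 6 lists lie below that line, and Ltbp2 is the right-most point of the storage list.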

How the data were processed

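Probe tags of 6 areas were measured with the NanoString GeoMx mouse whole transcriptome assay, and per the labels the libraries were sequenced. The deposited table holds 1 signal value per target and area. How the authors counted tags, filtered targets and scaled areas is not stated in the labels or headers, and neither is how areas were chosen. The values are not whole numbers and differ in total between areas, so no count model was used. Values were divided by the region's upper quartile and multiplied by the geometric mean of the 6 upper quartiles, log2(value + 1) was taken, and all 13264 targets were fitted in R 4.3.3 by limma 3.58.1, with the prior variance of eBayes following the mean level, floxed minus control, 3 regions against 3, with Benjamini-Hochberg adjustment over all targets, a threshold of 0.05 and no filter on low values. Every adjusted p in the text is from this fit or a named alternative. The script was tested on simulated data. Intervals are 95% and come from the fit. Only the spread between regions enters, and it may be technical. Genotype and block of areas cannot be told apart, and an exact permutation test of a single value could not go below 0.1. The components and all lists were chosen with earlier results of these data known. Components described per region were the 10 with the smallest p, the 12 with the highest mean Q3-scaled level, and a set list of core genes. Of each list of further pathway genes, the called gene and the 2 with the smallest p were described. Inhba, Bmp6, Bmp7, Gdf15, Bmp2k and Runx2 were added after their values were seen. Marker lists stand for cell types that the areas could hold. The smooth muscle and platelet sums were 352 to 503 and 19.1 to 33.3 in the floxed regions, against 379 to 755 and 20.6 to 30.8 in the control regions. Promoter sequences are RefSeq's on GRCm38.p6. Alternatives were other scalings, pseudocounts of 0.5 and 5, a filter at 2 times the negative probe, subtraction of the negative probe, other variance models, a threshold of 0.1 and leaving out each region.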

Additional observations from a re-analysis of the deposited data

How the results depend on the processing

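The signal over background and 3 regions a group limited what could be called, and animals were not told apart. With the values as deposited, 0 components were called higher and 32 lower, with a median of -1.38, 21 of all targets were higher and 9905 lower, and 0 of the other pathway genes were higher and 76 lower. Among the 26 components described per region, 7 estimates turned negative there. They were Gdf10 (-0.18), Gdf7 (-0.24), Acvr1b (-0.75), Eng (-0.93), Tgfb1 (-1.06), Tgfbr3 (-0.99) and Smad6 (-1.10). The totals of the regions, which this setting leaves in, differ between the groups. With the negative probe as the scale, 18 of all targets were higher and 5 lower, 0 of the other pathway genes were higher, the median of the components was -0.31, and Smad6 was at -0.024. Without the variance trend 0 of all targets were higher and 0 lower, and 0 of the other pathway genes were higher (limma). With region weights, 4 of the 45 components were lower (Skil, Id1, Inhbb and Smad1, with adjusted p of 0.0407, 0.0163, 0.0228 and 0.0261, limma). Of all 13264 targets, 365 were then higher and 330 lower, and 3 of the other pathway genes were higher and 5 lower. Quantile normalization gave 1 of the other pathway genes lower. At a threshold of 0.1, 52 of all targets were lower and 1 of the other pathway genes was lower. With each region left out in turn, 0 to 1 components were higher and 0 to 5 lower, 15 to 537 of all targets were higher and 0 to 487 lower, 0 to 3 of the other pathway genes were higher and 0 to 5 lower, and the median of the components ran from -0.14 to 0.0068. Every upper end of these counts came without floxed region 1, which was also where Eng, Tgfbr3, Tgfbr2 and Tgfb2 were lowest. Over the 6 fits, 12 of the 45 components changed sign, a count that was not computed for all targets. Of the 12, 5 were among the 26 described per region. Of these 5, Eng ran from -0.14 to 0.75, Tgfbr3 from -0.086 to 0.46 and Smad4 from -0.25 to 0.0086. Tgfbr2 ran from -0.45 to 0.19 and Tgfb2 from -0.95 to 0.082. All 5 were highest without floxed region 2. The causes were not tested. Total scaling, the pseudocounts, the filter, background subtraction and the robust variance changed no call or sign of the 26 components described per region. The planned edgeR test on whole tags was not run. Although 99.98% of values met equal steps in each region, that a step is 1 tag was not established. No paired analysis was possible because the replicate numbers were given in accession order and pair no regions.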
